A study of Mus musculus with 19 samples.

Results

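Tight junctions and gap junctions are the contacts through which epithelial cells seal the space between them and pass small molecules to each other. In a tight junction, claudins form the strands that set which ions and solutes leak between cells, the MARVEL proteins and immunoglobulin-like proteins lie in or beside the strands, and scaffold and polarity proteins tie them to actin and to the apical side. Connexins form the gap junction channels, and in the mammary gland luminal and myoepithelial cells are known to use different connexins and claudins. The genes described here are those that code for claudins, connexins and their tight junction partners, chosen by gene name on the array: every claudin, every connexin of the alpha, beta, gamma and delta groups, zonula occludens scaffolds such as Tjp1 and Tjp3, Ocln, Marveld2, Marveld3, F11r, Jam2, Jam3, Cgn, Cxadr, Pard3, Pard6b and Crb3. The files held 65 such genes on 99 of the 56605 probes, and 44 of them, on 65 probes, had a probe well above background on 4 or more of the 19 arrays. These 44 are called junction genes below, and they are 44 of the 20687 genes tested.

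Luminal cells (LCs) were sorted as CD24+CD29lo cells without CD31 and CD45, and their RNA was put on single-colour arrays, a separate one per animal. In the C451A-ERα line the residue of the estrogen receptor ERα that takes up palmitate, the lipid that anchors part of the receptor at the cell membrane, is mutated in the germline, so every tissue has the change. All mice were C57Bl/6N females of 8 weeks, ovariectomized at 24 days by the sample labels, given a hormone pellet 10 days later and treated for 21 days. The pellet held 17β-estradiol (E2) at 0.01 mg per 60 days, without or with progesterone (Pg) at 1.5 mg per 60 days. Under E2+Pg there were 5 C451A-ERα and 5 wild-type mice, and under E2 there were 5 C451A-ERα and 4 wild-type mice. Both genotypes had lost their ovaries, so no group shows the hormone levels of an intact animal.

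Each value is the median signal of the brightest passing probe of a gene, taken to log2 and normalized by quantiles, so that a difference of 1 is a doubling of signal. Signals of different probes are not compared. The arrays had a 75th percentile of the median signal between 248.5 and 490 and a background between 21 and 29, and no spot was saturated. The 6 pan-luminal markers (Krt8, Krt18, Krt19, Epcam, Cd24a and Muc1) were all above background. C451A-ERα mice L4 and L27 with E2 and L18 with E2+Pg stood apart from the rest of their groups. Their array weights in limma were 0.247, 0.292 and 0.302, against 0.498 to 2.92 for the other 16 mice, and their pan-luminal markers averaged 14.71, 14.87 and 14.64 in log2 signal, against 14.98 to 15.37 in the other 16. The counts of called junction genes are therefore also given without these 3 mice. Wild-type mice L72 with E2 and L21 with E2+Pg, with array weights of 0.621 and 0.498, were kept. Leaving out either alone raised the calls between the genotypes, as given below. Array weights raised the calls among all genes to 10.8% between the genotypes under E2, 10.6% between them under E2+Pg and 7.81% with progesterone in wild-type mice, so that a call of a single gene with array weights is read against these shares. In RNA of a sorted population, fewer cells of a type and less RNA per cell cannot be told apart.

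**Figure D1:**
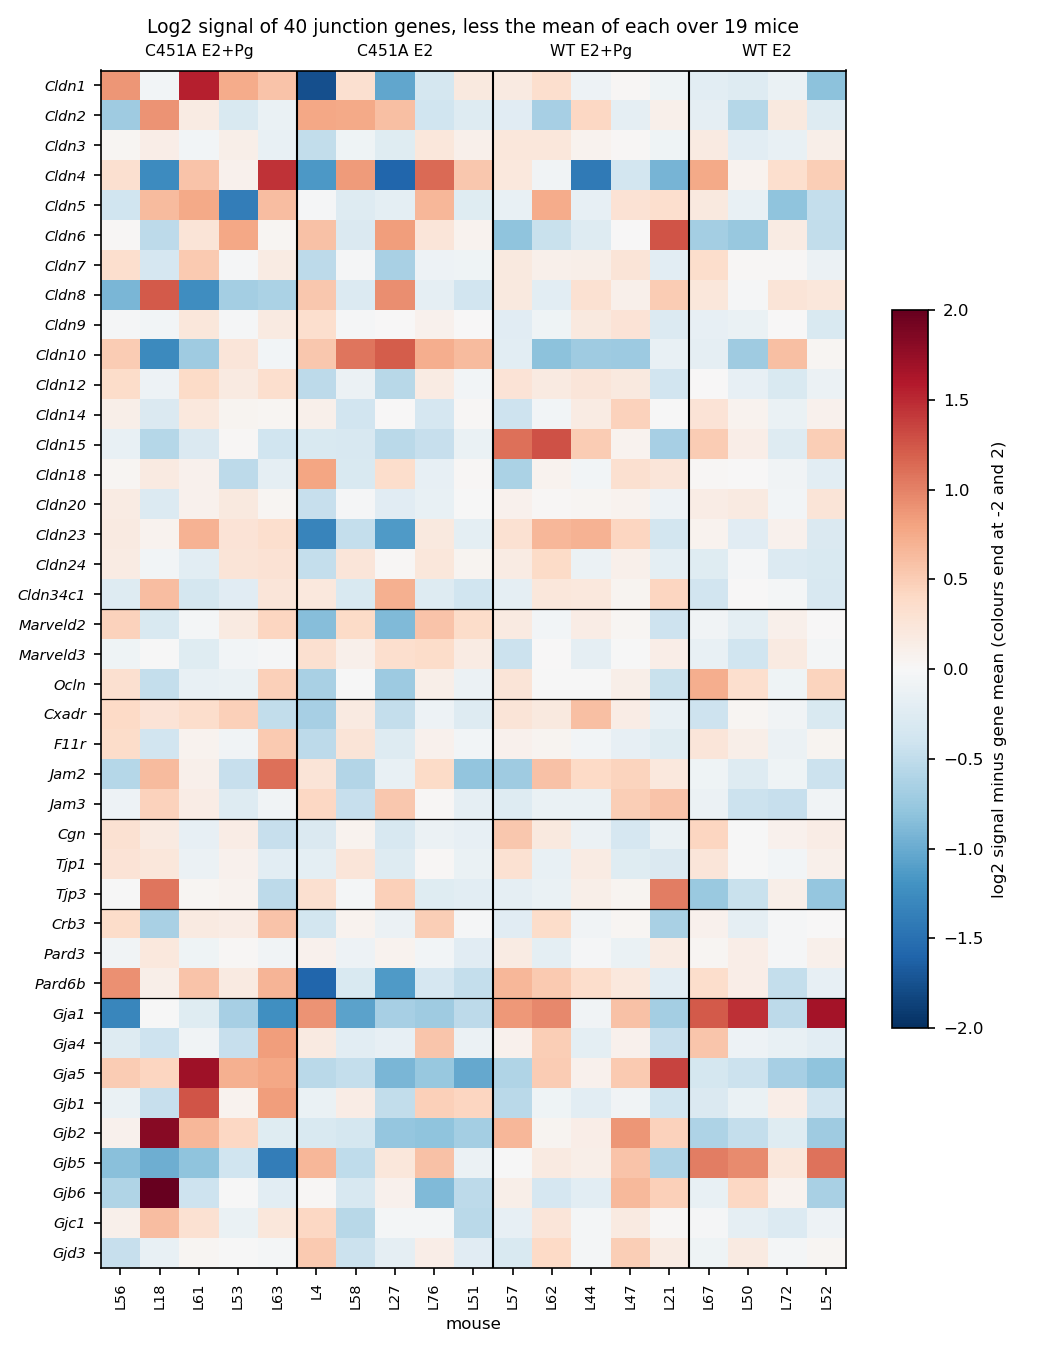
Log2 signal of 40 junction genes (rows, by role from claudins at the top to connexins at the bottom) in the 19 mice (columns, by group), less the mean of each gene over all mice; red is above and blue below that mean. The columns of L4 and L27 are blue at Cldn4, Cldn23 and Marveld2, and that of L18 is red at Cldn8, Gjb2 and Gjb6.

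The effect of progesterone on the junction genes was asked within each genotype. In C451A-ERα mice, E2+Pg against E2, 5 of 44 junction genes (11.4%) passed the test, while 2.46% of all genes tested did. Called means that limma gave an adjusted p under 0.05 together with more than 1.5-fold change in signal. Of the 5, 4 rose (1.02% of all genes did): the connexins Gja5 and Gjb2, the claudin Cldn1 and the polarity gene Pard6b. The connexin Gjb5 fell (1.44% of all genes did). In wild-type mice 0 of 44 were called, against 1.33% of all genes. The responses of the genotypes are not thereby shown to differ, since the test of that difference called 0 of 44 (smallest limma adjusted p = 0.472). At an unadjusted p under 0.05 there were 12 junction genes in C451A-ERα mice (27.3%, against 18.4% of all genes) and 5 in wild-type mice (11.4%, against 16.3% of all genes). The median log2 fold change of the 44 was 0.11 in C451A-ERα and 0.05 in wild-type mice, beside 0.00 and 0.04 over all genes tested. Without L4, L18 and L27, 0 of 44 were called in C451A-ERα mice (0.541% of all genes), and in wild-type mice Gjb2 alone was called (3.89% of all genes).

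The 5 called genes are shown by the 250 bases before their annotated start, since these genes carry the calls under progesterone. The sequences are those of RefSeq on GRCm38.p6, 5′ to 3′ on the strand of the gene, and capitals mark TGACC or its reverse complement GGTCA, the half-site letters of estrogen response elements. Pard6b lies at chr2:168080754-168081003 (+), Gja5 at chr3:97032152-97032401 (+), Gjb5 at chr4:127358165-127358414 (-), Gjb2 at chr14:57104703-57104952 (-) and Cldn1 at chr16:26371840-26372089 (-).
Gja5: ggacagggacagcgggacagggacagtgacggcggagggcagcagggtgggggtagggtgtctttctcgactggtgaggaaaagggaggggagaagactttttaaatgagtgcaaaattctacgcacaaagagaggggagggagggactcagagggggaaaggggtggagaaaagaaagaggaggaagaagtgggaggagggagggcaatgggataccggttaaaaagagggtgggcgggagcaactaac
Gjb2: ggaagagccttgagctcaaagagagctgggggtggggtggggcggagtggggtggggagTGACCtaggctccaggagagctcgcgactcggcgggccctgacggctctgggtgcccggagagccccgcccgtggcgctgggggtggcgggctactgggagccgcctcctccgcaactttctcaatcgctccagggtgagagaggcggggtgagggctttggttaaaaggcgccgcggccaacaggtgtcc
Gjb5: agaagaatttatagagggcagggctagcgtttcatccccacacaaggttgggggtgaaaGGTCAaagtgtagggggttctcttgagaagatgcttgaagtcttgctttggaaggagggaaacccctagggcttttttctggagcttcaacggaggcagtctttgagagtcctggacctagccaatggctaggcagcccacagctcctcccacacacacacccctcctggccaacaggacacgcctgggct
Pard6b: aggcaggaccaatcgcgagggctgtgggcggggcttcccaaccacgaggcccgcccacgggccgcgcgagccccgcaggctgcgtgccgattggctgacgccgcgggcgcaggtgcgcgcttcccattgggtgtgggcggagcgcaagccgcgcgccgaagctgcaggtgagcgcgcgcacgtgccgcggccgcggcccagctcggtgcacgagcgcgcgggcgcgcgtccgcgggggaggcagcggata
Cldn1: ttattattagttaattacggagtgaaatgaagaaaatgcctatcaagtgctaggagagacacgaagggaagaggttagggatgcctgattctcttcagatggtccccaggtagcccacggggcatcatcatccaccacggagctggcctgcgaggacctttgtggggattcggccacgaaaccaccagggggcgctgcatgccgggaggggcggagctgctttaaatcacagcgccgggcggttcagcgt
TGACC or GGTCA stood once in the windows of Gjb2 and Gjb5 and in none of the other 3, while 35.2% of all 32851 promoter windows of this length held it. TGTTCT or its reverse complement AGAACA, the half-site letters of progesterone response elements, was in none of the 5 and in 16.1% of all windows. The window of Pard6b was 77.6% G and C, that of Gjb2 69.2%, and those of Gjb5, Cldn1 and Gja5 54.4%, 55.6% and 56.4%. Of the 44 junction genes, 31 had a window in the reference, some of them several. Of their 46 windows, 20 (43.5%) held TGACC or GGTCA and 8 (17.4%) held TGTTCT or AGAACA. Windows of the same gene can overlap, so a site can be counted more than once. By gene, 15 of the 31 had TGACC or GGTCA and 6 had TGTTCT or AGAACA in a window.

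Gja5 codes for connexin 40, best known from the artery wall and the conduction system of the heart. It read 6.95, 7.02, 7.22, 7.29 and 8.21 in C451A-ERα mice with E2+Pg, against 5.49, 5.60, 5.75, 5.97 and 6.03 in those with E2. Every C451A-ERα mouse with progesterone was above every one without it, and L61 was the highest. The signal was 2.97-fold higher (log2 fold change 1.57 ± 0.28, SE, limma adjusted p = 0.00648), and the two-sided exact permutation test gave 0.00794, the smallest p that 5 mice against 5 can give. In wild-type mice it read 5.91, 6.60, 7.02, 7.04 and 7.86 with E2+Pg, against 5.71, 5.85, 6.09 and 6.16 with E2, and L57 lay within the range of the E2 mice. The wild-type difference of 0.94 ± 0.30 was not called (limma adjusted p = 0.124). It was called without L57 (adjusted p = 0.0342, a fit that called 2.08% of all genes) and with array weights (adjusted p = 0.0289). Without L4, L18 and L27 the C451A-ERα difference was 1.68 (adjusted p = 0.0505). The interaction, 0.63 (limma adjusted p = 0.479), was not called either, so a difference between the genotypes is not shown.

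Gja5 had a second passing probe, which did not move with the first. The first 30 bases of both probes, as the files give them, are shown because they read different parts of the gene.
Gja5 probe 1: tgtgtgctttatctgtaaatattgattgca
Gja5 probe 2: acctcactctgagctctaaacgtggaaggc
On mm9, the build of the files, probe 1 lies at chr3:96881280-96881339 and probe 2 spans chr3:96841677-96854553, so that its 60 bases are split over that stretch. Probe 2 differed by 0.11 ± 0.12 in C451A-ERα mice and by -0.15 ± 0.13 in wild-type mice (limma adjusted p = 0.676 and 0.562 over all passing probes). It was well above background on 19 arrays and probe 1 on 18. Probe 1 stands for Gja5 as the brighter probe over all arrays, and it was brighter only through the mice with E2+Pg. In C451A-ERα mice with E2, probe 1 lay between 5.49 and 6.03 and probe 2 between 5.43 and 6.08. With E2+Pg they lay between 6.95 and 8.21 and between 5.75 and 6.05. The choice of probe 1 thus drew on the same values as its call. Because Gja5 is known from vessel walls, the endothelial markers are given beside it: 6 of 8 were above background (Tek and Tie1 were not), and 0 of the 6 were called in either genotype. The mean log2 signal of the 6 lay between 6.75 and 7.33 in C451A-ERα mice with E2+Pg and between 6.77 and 7.36 in those with E2. In wild-type mice it lay between 6.56 and 7.26 with E2+Pg and between 6.48 and 7.10 with E2. The mean covers members that lay apart in opposite directions. Vwf, the clotting factor of endothelial cells, lay between 9.60 and 11.07 in C451A-ERα mice with E2+Pg, against 9.03 and 9.55 in those with E2, and Eng, endoglin, between 6.90 and 8.45 with E2+Pg, against 8.54 and 9.23 with E2. The log2 of the summed signal of the 6 lay between 10.36 and 11.30 in C451A-ERα mice with E2+Pg, against 10.19 and 10.62 in those with E2, and in wild-type mice between 10.15 and 11.17, against 9.39 and 10.84. Their part in the values of Gja5 was not tested.

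**Figure D2:**
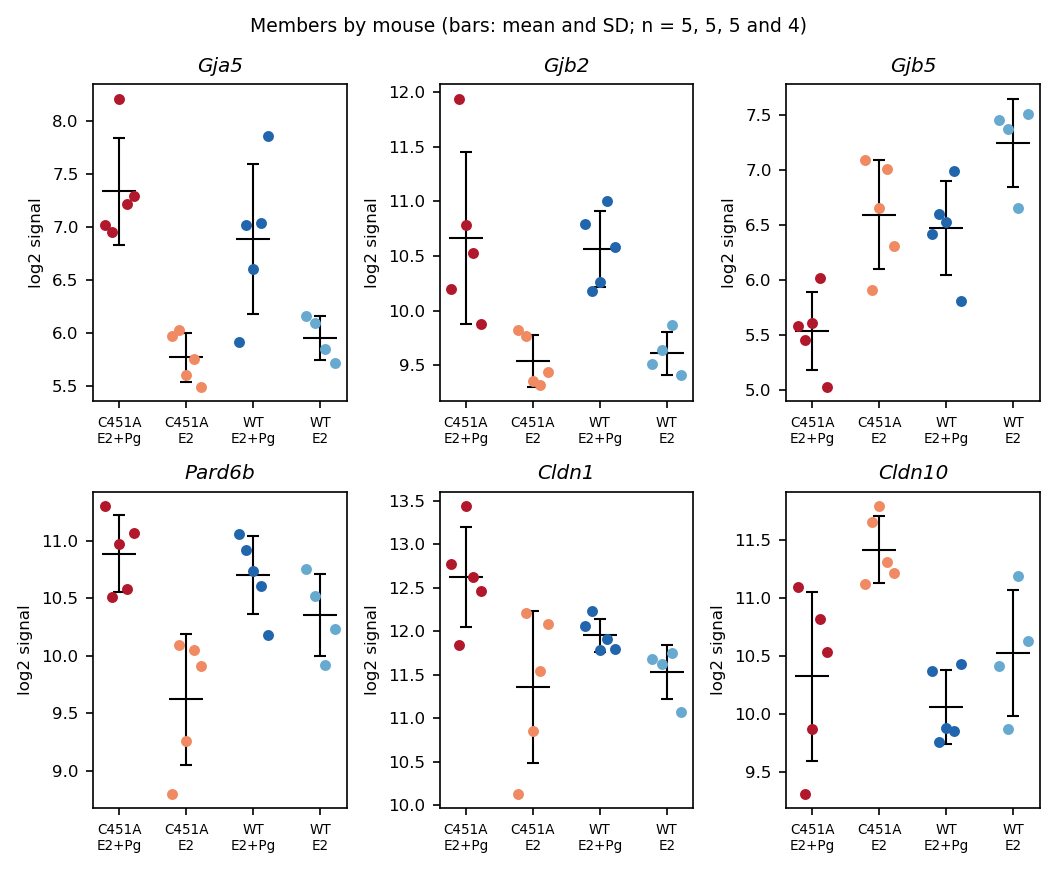
Log2 signal of Gja5, Gjb2, Gjb5, Pard6b, Cldn1 and Cldn10 in each mouse (points) of the 4 groups, with group mean and SD (bars). For Gja5, Gjb2 and Pard6b all 5 C451A-ERα mice with E2+Pg lie above the 5 with E2, and for Cldn10 all 5 lie below.

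Gjb2 codes for connexin 26, the main connexin of luminal cells, known to rise in the mammary gland in pregnancy and lactation. Its signal was 9.88, 10.20, 10.53, 10.78 and 11.94 in C451A-ERα mice with E2+Pg, against 9.32, 9.35, 9.44, 9.77 and 9.82 in those with E2. The groups did not overlap, and L18 was the highest. The log2 fold change was 1.13 ± 0.28 (2.18-fold higher, limma adjusted p = 0.0375, exact permutation p = 0.00794). In wild-type mice the signal was 10.18, 10.26, 10.58, 10.79 and 11 with E2+Pg, against 9.41, 9.51, 9.64 and 9.87 with E2. Those groups did not overlap either, and the difference of 0.96 ± 0.30 was close to that in C451A-ERα mice but was not called (limma adjusted p = 0.114, exact permutation p = 0.00794). It was called without L18 (adjusted p = 0.0187, with 2.17% of all genes called), with array weights (0.00785) and in a fit of only the 2 wild-type groups (0.0396, with 1.52% called). The interaction for Gjb2 was 0.17 (limma adjusted p = 0.848). The call in C451A-ERα mice was lost in 6 of the 19 fits that left out 1 mouse (L4, L27, L51, L53, L61 or L76; adjusted p up to 0.104) and with slide as a block (adjusted p = 0.0609), while on each of the 5 slides the mouse with progesterone was the higher one.

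Gjb5 codes for a connexin known from stratified epithelium and trophoblast. It read 5.03, 5.45, 5.58, 5.61 and 6.02 in C451A-ERα mice with E2+Pg, against 5.91, 6.31, 6.65, 7.01 and 7.09 in those with E2. Only L53 with E2+Pg and L58 with E2 overlapped. Gjb5 fell by 1.06 on the log2 scale (SE 0.25, limma adjusted p = 0.0315), and it was lower on all 5 slides. In wild-type mice it read 5.81, 6.42, 6.53, 6.60 and 6.99 with E2+Pg, against 6.65, 7.37, 7.45 and 7.51 with E2. The groups overlapped through L47 and L72, and the difference of -0.77 ± 0.27 was not called (limma adjusted p = 0.158). The call in C451A-ERα mice was lost without L4, L27, L56, L61, L63 or L76, each left out alone (adjusted p up to 0.084).

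Pard6b is a subunit of the PAR polarity complex, which with Pard3 and atypical protein kinase C sets up the apical side. Its signal was 10.51, 10.58, 10.97, 11.07 and 11.30 in C451A-ERα mice with E2+Pg, against 8.80, 9.26, 9.91, 10.05 and 10.09 in those with E2. The groups did not overlap, and the 2 lowest values were those of L4 and L27. The difference was 1.27 ± 0.25 (2.40-fold higher, limma adjusted p = 0.011, exact permutation p = 0.00794). In wild-type mice the signal was 10.18, 10.61, 10.74, 10.92 and 11.06 with E2+Pg, against 9.92, 10.23, 10.52 and 10.75 with E2, with much overlap (0.35 ± 0.26, limma adjusted p = 0.511). Pard6b had the lowest p of the junction genes in the interaction, 0.92 ± 0.36 (unadjusted p = 0.0214, limma adjusted p = 0.472). Without L4, L18 and L27 its difference in C451A-ERα mice was 0.96 (adjusted p = 0.077), and in a fit of only the 2 C451A-ERα groups the adjusted p was 0.0583. With each mouse left out alone, the calls of Pard6b and Gja5 were kept in all 19 fits.

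Cldn1 codes for a claudin that tightens the seal and is essential for the skin barrier. In C451A-ERα mice it read 11.84, 12.46, 12.63, 12.77 and 13.44 with E2+Pg, against 10.13, 10.85, 11.54, 12.08 and 12.21 with E2. L18 with E2+Pg lay below L51 and L58 with E2, and L4 and L27 were the lowest of all. The log2 fold change was 1.27 ± 0.33 (2.41-fold higher) at a limma adjusted p of 0.0482, and the exact permutation p was 0.0238. This call was kept only when L18, L51 or L58 was the mouse left out and lost in the other 16 such fits (adjusted p up to 0.156), and it was lost with slide as a block (adjusted p = 0.102). In wild-type mice Cldn1 read 11.78, 11.80, 11.91, 12.06 and 12.23 with E2+Pg, against 11.07, 11.63, 11.68 and 11.75 with E2. Those groups did not overlap, with a smaller difference of 0.42 (limma adjusted p = 0.551).

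Without overlap between E2+Pg and E2 mice were 5 junction genes in C451A-ERα mice (Gja5, Gjb2 and Pard6b higher, Cldn10 and Marveld3 lower), against 5.04% of all genes, and 3 in wild-type mice (among them Gjb2 and Cldn1, both higher), against 8.68% of all genes. Cldn10, a claudin that forms ion-selective pores, had 9.31, 9.87, 10.53, 10.82 and 11.09 in C451A-ERα mice with E2+Pg, against 11.12, 11.21, 11.31, 11.65 and 11.79 in those with E2. Its difference of -1.09 ± 0.30 narrowly missed the call (limma adjusted p = 0.0535) and was -0.47 in wild-type mice. Cldn10 was called without L53, L56 or L72 (adjusted p down to 0.0279). Marveld3, a relative of occludin, differed by -0.34 in C451A-ERα mice (limma adjusted p = 0.128) and by 0.00 in wild-type mice. Cldn23 differed by 0.89 in C451A-ERα mice (limma adjusted p = 0.0661; called without L76 or L21) and by 0.43 in wild-type mice. Gja4, connexin 37 of the vessel wall, differed by -0.12 and -0.02 with progesterone in C451A-ERα and wild-type mice.

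**Figure D3:**
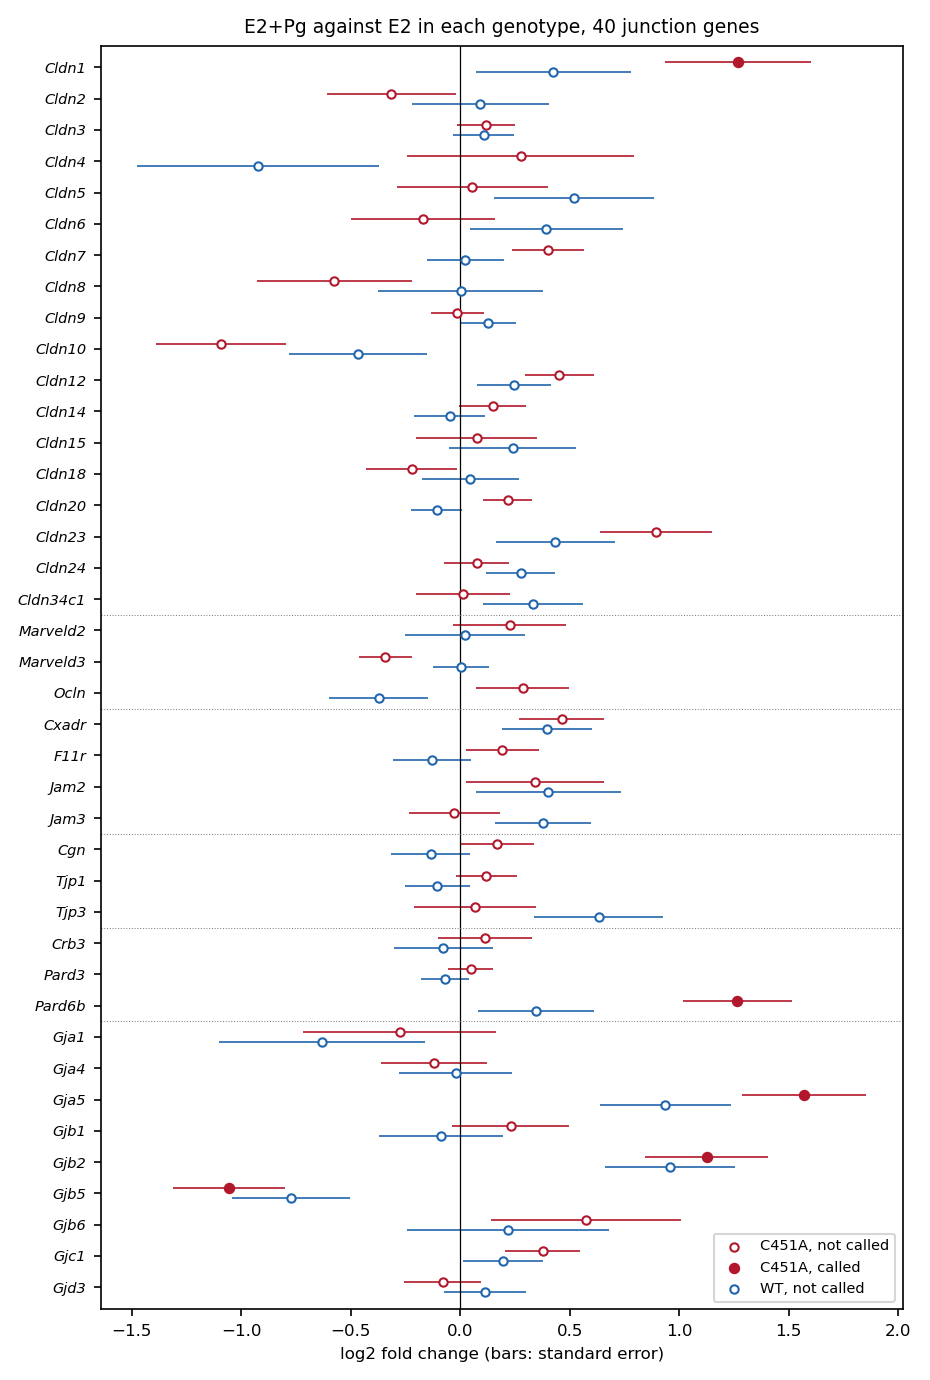
Log2 fold change with standard error of 40 junction genes for E2+Pg against E2 in C451A-ERα mice (red) and wild-type mice (blue), by role from claudins at the top to connexins at the bottom. Filled points are called: Cldn1, Pard6b, Gja5 and Gjb2 to the right and Gjb5 to the left, all in C451A-ERα mice.

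The brightest claudin probes were those of Cldn3, Cldn7 and Cldn4, the claudins known from luminal cells. Cldn3 read 14.50, 14.59, 14.69, 14.77 and 14.78 in C451A-ERα mice with E2+Pg, 14.15, 14.40, 14.56, 14.75 and 14.87 in C451A-ERα mice with E2, 14.56, 14.67, 14.71, 14.87 and 14.88 in wild type with E2+Pg, and 14.44, 14.50, 14.77 and 14.82 in wild type with E2. All 4 groups overlapped. Cldn7 read 14.32, 14.63, 14.82, 14.99 and 15.18 in C451A-ERα mice with E2+Pg and 14.02, 14.14, 14.56, 14.57 and 14.64 in those with E2, against 14.45, 14.76, 14.78, 14.85 and 14.92 in wild type with E2+Pg and 14.55, 14.68, 14.68 and 15.02 in wild type with E2. Its largest difference was 0.40 with progesterone in C451A-ERα mice (limma adjusted p = 0.203). Cldn4 varied far more: 11.70, 13.05, 13.28, 13.53 and 14.41 in C451A-ERα mice with E2+Pg, against 11.38, 11.81, 13.50, 13.81 and 14.09 in those with E2. The low values were those of L18, and of L27 and L4. In wild type it read 11.55, 12.03, 12.60, 12.90 and 13.18 with E2+Pg, against 13.03, 13.30, 13.46 and 13.72 with E2. The progesterone difference of Cldn4 was 0.27 in C451A-ERα and -0.92 in wild-type mice (limma adjusted p = 0.828 and 0.405), and its interaction of 1.20 was the largest of the junction genes (limma adjusted p = 0.474).

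The effect of the mutation was asked under each treatment. Under E2, C451A-ERα against wild type, 0 of 44 junction genes were called, beside 0.029% of all genes (6 of 20687), and under E2+Pg 0 of 44 were called, beside 0.00483% (1 of 20687). The authors corrected for washing bath and labelling series, which the labels do not give, so this fit lacks those terms. Their corrected value table gave 133 calls among all genes under E2 (0.676%) and 26 under E2+Pg (0.132%). With so few calls among all genes, 0 calls do not show that the genotypes were alike. At an unadjusted p under 0.05 there were 7 junction genes under E2 (15.9%, against 13.6% of all genes) and 4 under E2+Pg (9.09%, against 18.3% of all genes). No junction gene had groups without overlap, against 3.52% of all genes under E2 and 2.61% under E2+Pg. The median log2 fold change of the 44 was -0.07 under E2 and 0.02 under E2+Pg, beside 0.03 and -0.03 over all genes. The interaction of genotype and progesterone gave 0 calls, beside 0% of all genes, and 2 unadjusted p under 0.05 (4.55%, against 9.37% of all genes), those of Pard6b and Ocln. Without L4, L18 and L27, 0 of 44 were called under E2 (1.46% of all genes). Under E2+Pg 5 of 44 were then called (11.4%, against 14.5% of all genes): Cldn1, Cldn4 and Gjb1 were higher and Cldn8 and Gjb5 lower in C451A-ERα mice. Single mice also moved the calls. Without wild-type L72, 1043 genes (5.04%) were called under E2, among them Gja1. Under E2+Pg, 232 genes (1.12%) were called without wild-type L21, among them Cldn15 and Gjb5. Without L18 there were 1097 (5.3%), among them Cldn8. The few calls between the genotypes thus depended on single arrays of both genotypes.

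Gja1 codes for connexin 43, in the mammary gland known mainly from myoepithelial cells. Under E2 it read 7.19, 7.55, 7.60, 7.73 and 9.16 in C451A-ERα mice, against 7.74, 9.49, 9.72 and 9.92 in wild type. L4 was high among C451A-ERα mice and L72 low among wild-type mice, so that the groups overlapped. The difference of -1.37 ± 0.47 was not called (limma adjusted p = 0.198), and it was called without L72 (-1.87, adjusted p = 0.017) and with array weights (adjusted p = 0.000334). The fit without L72 called 5.04% of all genes and that with array weights 10.8%. Under E2+Pg Gja1 read 6.96, 7.03, 7.59, 8.01 and 8.25 in C451A-ERα mice, against 7.58, 8.19, 8.84, 9.12 and 9.22 in wild type, with L21 the lowest wild-type mouse. There the difference was -1.02 ± 0.44 (limma adjusted p = 0.245; 0.0366 with array weights), and on each of the 5 slides the C451A-ERα mouse was the lower one. Among 5 passing probes of Gja1, the 3 brightest read lower in C451A-ERα mice under both treatments (-1.37, -1.18 and -1.04 under E2, and -1.02, -1.19 and -0.58 under E2+Pg). The other 2 probes, above background on 14 arrays each, gave -0.26 and 0.25 under E2 and 0.43 and 0.34 under E2+Pg.

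Basal and myoepithelial markers are given beside Gja1, and all 9 were above background. Under E2, 2 of them were higher and 7 lower in C451A-ERα mice, with a median log2 fold change of -0.30, and 0 were called. Their mean log2 signal lay between 10.37 and 10.94 in C451A-ERα mice, against 10.72 and 11.14 in wild type. Under E2+Pg, 5 were higher and 4 lower, with a median of 0.00, and the mean ranged from 10.09 to 11.27 in C451A-ERα mice, against 10.26 to 10.75 in wild type. Their part in the values of Gja1 was not tested.

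Gjb5 had the lowest p of the junction genes between the genotypes under E2+Pg. With the values given above, 4 of 5 C451A-ERα mice with E2+Pg lay below all wild-type mice with E2+Pg, and the difference was -0.93 ± 0.25 (limma adjusted p = 0.12, exact permutation p = 0.0159). The difference lay between -1.15 and -0.78 on the 5 slides, and it was called without L21 (adjusted p = 0.0435) and with array weights (adjusted p = 0.034), fits that called 1.12% and 10.6% of all genes. Under E2 it was -0.65 ± 0.27 (limma adjusted p = 0.29). Of 8 epidermal markers, 6 were above background (Flg and Dsg1a were not) and 0 were called between the genotypes. All 6 were lower in C451A-ERα mice under E2 (median -0.57), and 3 were higher and 3 lower under E2+Pg (median 0.06). Among the lower ones, Lor lay between 5.27 and 6.62 in C451A-ERα mice with E2+Pg, against 6.39 and 7.98 in wild type. Ivl lay between 4.55 and 5, against 4.34 and 6.04, and L21 was the lowest wild-type mouse for both. The part of the epidermal markers in the values of Gjb5 was not tested. Cldn15, a claudin that forms sodium-selective pores, read 5.67, 5.84, 5.96, 6.09 and 6.27 in C451A-ERα mice with E2+Pg, against 5.58, 6.31, 6.75, 7.35 and 7.51 in wild type. All wild-type mice but L21 were above all C451A-ERα mice (-0.73 ± 0.27, limma adjusted p = 0.207). Cldn15 was called in the same fits, without L21 (adjusted p = 0.0358) and with array weights (adjusted p = 0.0469). Under E2 it read 5.70, 5.78, 5.93, 5.94 and 6.11 in C451A-ERα mice, against 5.99, 6.38, 6.73 and 6.75 in wild type (-0.57, limma adjusted p = 0.411, exact permutation p = 0.0159). Cldn15 was thus lower on average in C451A-ERα mice under both treatments, with no call in either.

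After Gja1, the lowest p values under E2 were those of Cldn10, Ocln, Marveld3 and Pard6b. Ocln, occludin, the first strand protein to be named, read 8.67, 8.75, 9.28, 9.39 and 9.51 in C451A-ERα mice, against 9.31, 9.74, 9.84 and 10.13 in wild type (-0.63 ± 0.23, limma adjusted p = 0.214). L27 and L4 were the lowest, and L72 was the only wild-type mouse within the C451A-ERα range. Marveld3 read 10.55, 10.61, 10.76, 10.78 and 10.81 in C451A-ERα mice, against 10.05, 10.29, 10.41 and 10.62 in wild type (0.36 ± 0.13, limma adjusted p = 0.214), and only L72 of the wild-type mice reached the C451A-ERα range. Cldn10 read 9.87, 10.41, 10.63 and 11.19 in wild type with E2, and only L72, at 11.19, reached the range of the C451A-ERα values given above. Cldn10 differed by 0.89 ± 0.31 (limma adjusted p = 0.211; 0.00389 with array weights, where 10.8% of all genes were called) and Pard6b by -0.73 ± 0.26 (limma adjusted p = 0.22). Under E2+Pg the difference of Ocln was 0.02, that of Marveld3 0.01, that of Cldn10 0.26 and that of Pard6b 0.19. Ocln read 8.92, 9.25, 9.26, 9.71 and 9.88 in C451A-ERα mice with E2+Pg, against 8.95, 9.39, 9.39, 9.52 and 9.66 in wild type, and its interaction was 0.66 ± 0.31 (unadjusted p = 0.0485, limma adjusted p = 0.472).

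**Figure D4:**
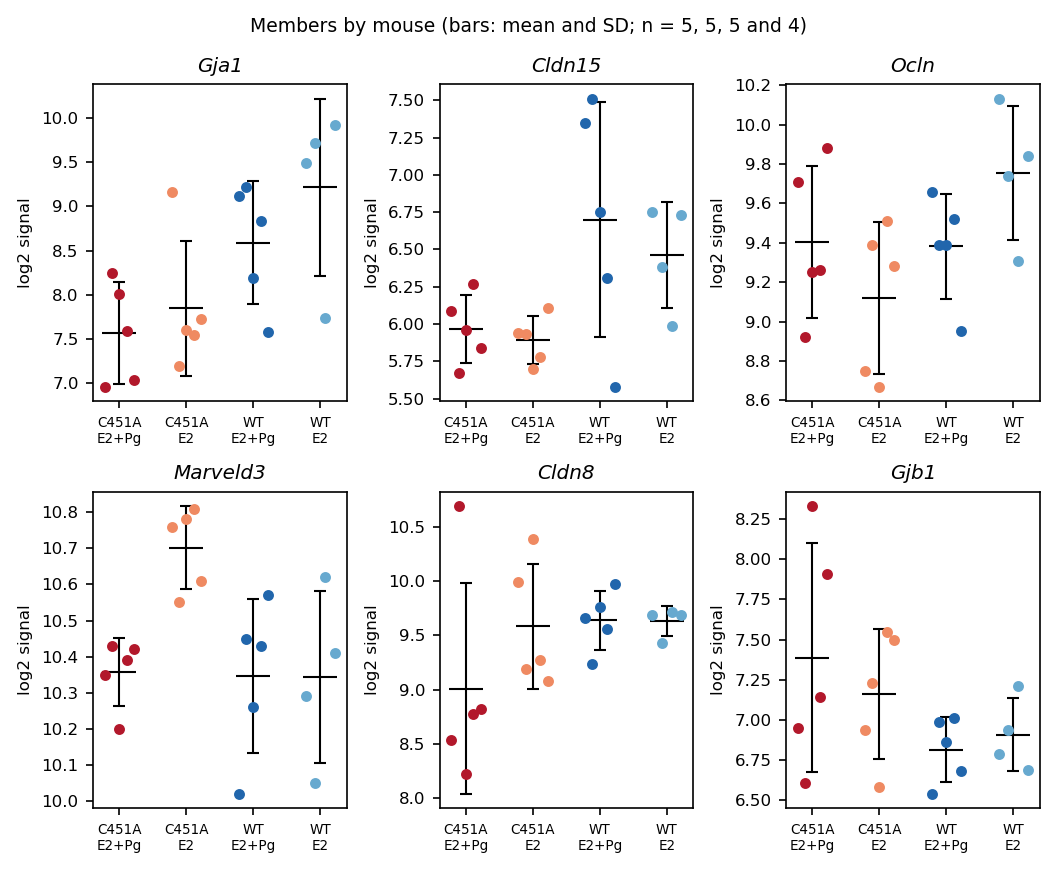
Log2 signal of Gja1, Cldn15, Ocln, Marveld3, Cldn8 and Gjb1 in each mouse (points) of the 4 groups, with group mean and SD (bars). In every panel the range of the C451A-ERα mice overlaps that of the wild-type mice under the same treatment. Under E2 the overlap is only through L72 for Cldn15, Ocln and Marveld3, and through L4 and L72 for Gja1. Under E2+Pg it is only through L21 for Cldn15 and only through L18 for Cldn8.

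Gjb1, connexin 32, a luminal connexin known to rise in lactation, read 6.61, 6.95, 7.14, 7.91 and 8.33 in C451A-ERα mice with E2+Pg, against 6.54, 6.68, 6.86, 6.99 and 7.01 in wild type (0.57 ± 0.27, limma adjusted p = 0.265). L61 and L63 were above all others. Cldn1 under E2+Pg was above the wild-type range in 4 of 5 C451A-ERα mice (0.67 ± 0.33, limma adjusted p = 0.286). Cldn8, a claudin that lowers cation leak in the kidney, read 8.22, 8.54, 8.78, 8.82 and 10.69 in C451A-ERα mice with E2+Pg, against 9.24, 9.56, 9.66, 9.76 and 9.97 in wild type. The 10.69 was that of L18, and the other 4 lay below all wild-type mice. With L18 the difference was -0.63 (limma adjusted p = 0.324), and without it -1.05 (adjusted p = 0.0345), and it was -0.58 with progesterone in C451A-ERα mice (called without L18, adjusted p = 0.0258). Cldn8 was chosen for full values after they were seen.

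**Figure D5:**
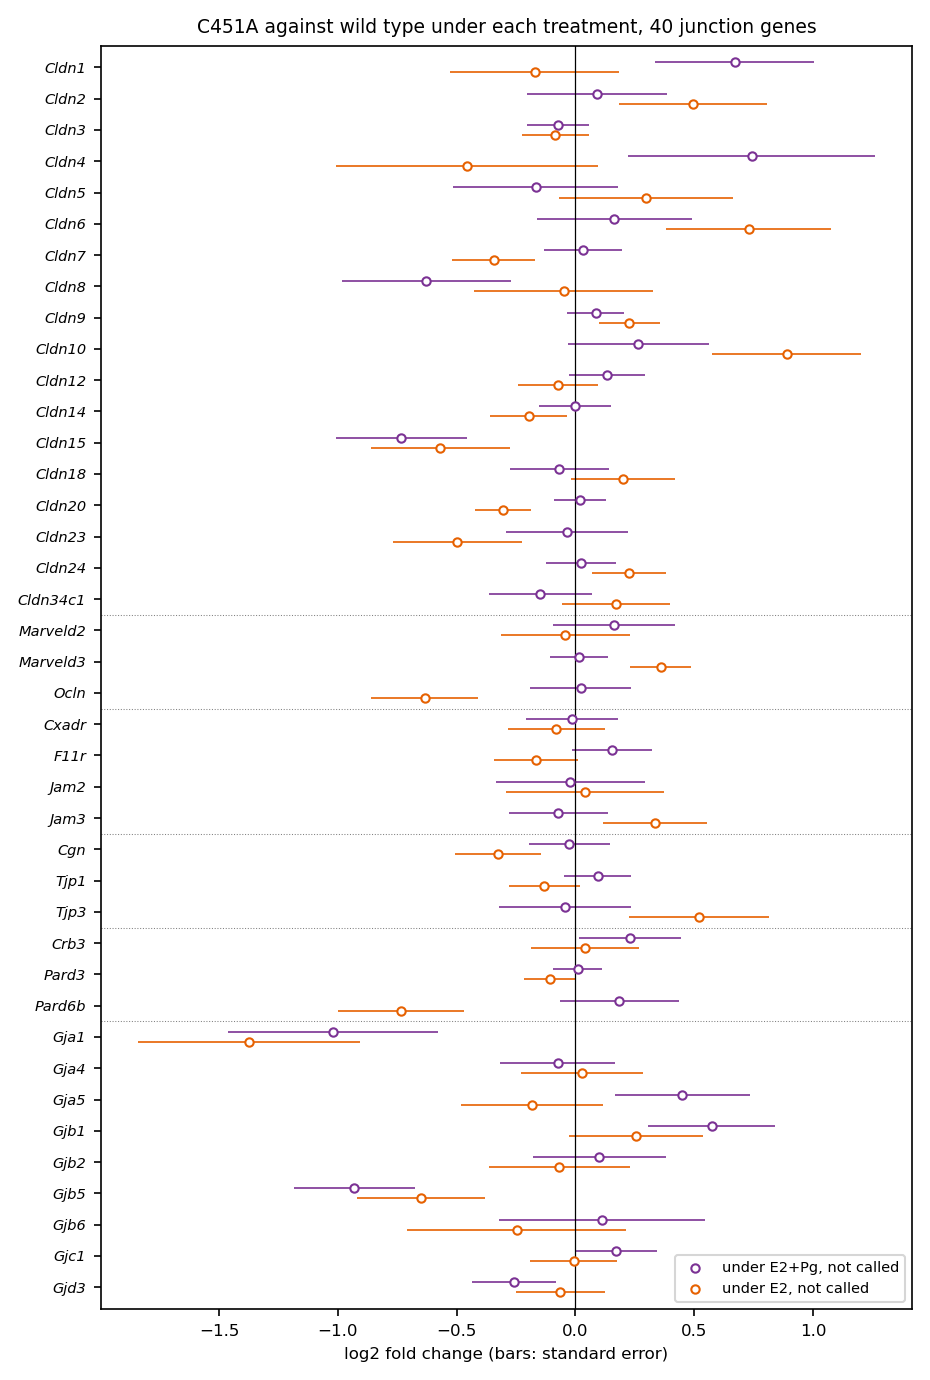
Log2 fold change with standard error of 40 junction genes for C451A-ERα against wild type under E2+Pg (purple) and under E2 (orange), by role from claudins at the top to connexins at the bottom. No point is filled, since no gene was called; Gja1 and Gjb5 lie to the left under both treatments.

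The remaining junction genes are given by their log2 fold changes with progesterone, C451A-ERα first and wild type after it. Among the claudins these were 0.45 and 0.24 for Cldn12, 0.05 and 0.52 for Cldn5 of the vessel wall, -0.17 and 0.39 for Cldn6, -0.31 and 0.09 for Cldn2, and -0.58 and 0.00 for Cldn8. Dim claudin probes gave 0.15 and -0.05 (Cldn14), -0.22 and 0.05 (Cldn18), 0.22 and -0.11 (Cldn20), 0.07 and 0.28 (Cldn24), 0.01 and 0.33 (Cldn34c1), and -0.01 and 0.13 (Cldn9). None of these claudins was called in any comparison. Of the MARVEL proteins, Marveld2, tricellulin, which seals the points where 3 cells meet, differed by 0.22 and 0.02. Of the immunoglobulin-like proteins, Cxadr, the coxsackievirus and adenovirus receptor, differed by 0.46 and 0.40, F11r by 0.19 and -0.13, Jam2 by 0.34 and 0.40, and Jam3 by -0.03 and 0.38. Jam3 and Gjc1 were not well above background on any array of wild type with E2, so a fold against that group rests on signal near background. From the signals as read, Jam3 was 1.26-fold higher in C451A-ERα mice with E2 (log2 fold change 0.34 ± 0.22). It was 1.30-fold higher in wild type with E2+Pg (0.38 ± 0.22), and Gjc1 was 1.15-fold higher there (0.20 ± 0.18). These brighter groups were above background on only 3, 3 and 1 arrays, and none of the differences was called.

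Scaffold and polarity genes carried no call other than Pard6b. The zonula occludens scaffolds differed with progesterone by 0.12 and -0.10 (Tjp1) and 0.07 and 0.63 (Tjp3) in C451A-ERα and wild-type mice, and cingulin, Cgn, which links them to actin, by 0.17 and -0.13. Pard3 and Crb3, of the PAR and Crumbs polarity complexes, differed by 0.05 and -0.07 and by 0.11 and -0.08. Their partners Pals1 and Patj stood in the files under the older symbols Mpp5 and Inadl and are counted apart. Mpp5 differed by 0.07 and -0.02 and Inadl by 0.03 and -0.20, and neither was called in any comparison. The other connexins differed by 0.58 and 0.22 (Gjb6), 0.38 and 0.20 (Gjc1) and -0.08 and 0.11 (Gjd3). Gjb6, connexin 30, was above background on 7 arrays, with 7.92 in L18 and at most 5.45 in the other C451A-ERα mice with E2+Pg.

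The probes of 21 junction genes reached the background limit on fewer than 4 arrays. They were 14 claudins, namely Cldn11, Cldn13, Cldn16, Cldn17, Cldn19, Cldn22, Cldn34a, Cldn34b1, Cldn34b2, Cldn34b3, Cldn34b4, Cldn34c4, Cldn34d and Cldn34-ps, and 7 connexins, among them Gja3, Gja6, Gja10, Gjc3, Gjd2 and Gjd4. A probe that passes on only 4 arrays may have passed through the group in which it is brighter, and the counts above hold for the 44 genes that passed.

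Among 48 further genes of tight junctions, polarity complexes and pannexins, 40 were tested and 1 was called. That call came with progesterone in C451A-ERα mice, where 2.46% of all genes were called, so 1 of 40 is near the share of all genes. Rab13, a small GTPase that carries junction proteins to the membrane, fell by 0.69 on the log2 scale with progesterone in C451A-ERα mice (limma adjusted p = 0.0265). The median log2 fold change of the 40 with progesterone was 0.10 in C451A-ERα and 0.04 in wild-type mice, and between the genotypes it was -0.01 under E2 and 0.02 under E2+Pg. Of the 10 luminal hormone-sensing markers, 1 was higher and 9 were lower with progesterone in C451A-ERα mice, with a median of -1.10 for the list. The higher one was Tnfsf11, at 4.53 to 7.57 with E2+Pg, against 4.50 to 5.58 with E2. None was called higher and 4 were called lower (Foxa1, Ly6a, Pgr and Prom1), beside 1.02% and 1.44% of all genes. In wild-type mice 2 of the 10 markers were higher and 8 lower, with a median of -0.73, and 0 of 10 were called (1.33% of all genes). Their mean log2 signal lay between 10.46 and 11.26 in C451A-ERα mice with E2+Pg, against 11.73 and 11.98 in those with E2. In wild type it lay between 10.71 and 11.29 with E2+Pg, against 11.18 and 11.92 with E2. Of the 9 luminal progenitor and alveolar markers, 0 were called in either genotype. Of the 5 Schwann and nerve markers, all above background, only Sox10, a transcription factor of Schwann cells also known from mammary epithelium, was called, and it rose with progesterone in both C451A-ERα mice (log2 fold change 1.08, limma adjusted p = 0.0174) and wild-type mice (1.50, limma adjusted p = 0.00701). The part of the hormone-sensing and Schwann markers in the values of the junction genes was not tested.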

How the data were processed

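The authors deposited scanner output of Agilent Feature Extraction 10.10.1.1, in which each spot has an intensity on a linear scale. They also deposited a table on the log2 scale, which by the authors' methods was filtered, corrected for batch and quantile normalized, and this table served only as an alternative. Probes were kept if well above background on at least 4 of 19 arrays (31842 of 56605), log2 of the median signal was quantile normalized, and the brightest passing probe stood for its gene. A single limma 3.58.1 model of the 4 groups was run in R 4.3.3 (15 residual degrees of freedom, prior 2.995), with Benjamini-Hochberg adjustment over 20687 genes and a call at adjusted p under 0.05 and fold change above 1.5, two-sided. All adjusted p come from limma. Exact permutation tests of single genes are two-sided and unadjusted. Genes were named through the reference by accession (32994 probes) or matched probe (8376), and 15235 probes kept the name in the file. Outlier spots (1370 over all arrays) were left out. The counts and medians cover all 44 junction genes tested, and values of 5 genes of the rule are not reported here.

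The junction genes, their roles and the marker lists were chosen with earlier results of these data known. By rule, values per mouse are given for called genes, the 5 lowest p in each genotype comparison, the 4 lowest in each progesterone comparison, the 2 lowest in the interaction, and the 3 brightest claudins and connexins. Mice are replicates by the labels, which give no pairing. Slides held up to 1 mouse of each group. Alternatives were another background correction, the processed signal, the value table, other filters, all probes, slide as a block, array weights, fewer groups and each mouse left out. The precision is limited by the number of arrays.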

Additional observations from a re-analysis of the deposited data

Results flagged for a closer look

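In 11 of 160 sets of 1 junction gene in 1 group, 1 mouse lay far from the others of its group by Dixon's test, and chance alone gives about 1 set in 20. Cldn12 was 9.97 in L21 of wild type with E2+Pg, against 10.53 to 10.63 in the other mice of that group. Cldn5 was 8.38 in L76 of C451A-ERα with E2, against 7.46 to 7.70 in the other mice of that group. Cldn8 was 9.43 in L50 of wild type with E2, against 9.69 to 9.72 in the other mice of that group. Cldn8 was 10.69 in L18 of C451A-ERα with E2+Pg, against 8.22 to 8.82 in the other mice of that group. Cxadr was 13.02 in L63 of C451A-ERα with E2+Pg, against 13.78 to 13.99 in the other mice of that group. Gja1 was 9.16 in L4 of C451A-ERα with E2, against 7.19 to 7.73 in the other mice of that group. Gja4 was 6.82 in L67 of wild type with E2, against 6.06 to 6.16 in the other mice of that group. Gja5 was 8.21 in L61 of C451A-ERα with E2+Pg, against 6.95 to 7.29 in the other mice of that group. Gjb5 was 6.65 in L72 of wild type with E2, against 7.37 to 7.51 in the other mice of that group. Gjb6 was 7.92 in L18 of C451A-ERα with E2+Pg, against 4.86 to 5.45 in the other mice of that group. Tjp3 was 13.14 in L21 of wild type with E2+Pg, against 11.93 to 12.23 in the other mice of that group. L18 and L21 each gave 2 of these sets. The difference of the progesterone response between the genotypes was not called for any junction gene (limma, 0 of 44 in the interaction), so none is listed for it.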

How the results depend on the processing

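The count of called junction genes depended on the setting. For C451A-ERα against wild type under E2 (0 called) it was 5 with array weights, which called 10.8% of all genes. With each mouse left out it was 0 to 1 (0% to 5.04% of all genes). Under E2+Pg (0 called) it was 4 with array weights (10.6% of all genes), 5 without L4, L18 and L27 together (14.5%), and 0 to 2 with each mouse left out (0.00483% to 5.3%). For E2+Pg against E2 in C451A-ERα mice (5 called, 2.46% of all genes) it was 3 without a background filter (1.04%) and 3 with slide as a block (1.81%). With only the groups compared it was 1 (0.667%), and without L4, L18 and L27 together 0 (0.541%). With each mouse left out it was 2 to 6, in fits that called 0.957% to 4.71% of all genes. The deposited value table gave 7 (3.53%). In wild-type mice (0 called) it was 5 with array weights (7.81% of all genes) and 1 with only the groups compared (1.52%). It was 1 without L4, L18 and L27 together (3.89%), and 0 to 1 with each mouse left out (0.135% to 2.8%). The interaction gave 0 calls throughout. Leaving out the 3 mice together was chosen after seeing the data, for their low array weights. Of 604 alternative values of single genes, 540 kept their direction and side of the threshold, 44 lost the call, 19 gained it and 1 reversed: Gja5 in wild-type mice was -0.15 where probes had to pass on all 19 arrays, which replaces its probe by the second one. In that setting the difference of Gja5 in C451A-ERα mice was 0.11, again read by the second probe, and its call was lost. In all other cases the cause was not tested. The labels give no pairing of mice, and slide, which held up to 1 mouse of each group, was the only block fitted.

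Each group holds 4 or 5 mice, and 3 of 10 C451A-ERα arrays stood apart, and the call of Cldn1 was kept in only 3 of 19 fits that left out 1 mouse. Quantile normalization fixes the distribution of every array, so a shift common to most genes would not be seen. Dim probes (Cldn9, Cldn14, Gjc1, Gjb6 and Jam3 passed on 5 to 8 arrays) lie close to background. The lower groups of the called genes Gjb5 and Gja5 were also dim. Gjb5 averaged 5.54 in C451A-ERα mice with E2+Pg and Gja5 5.77 in those with E2, each above background on 4 of 5 arrays. The fold changes of Gjb5 and Gja5 are therefore less certain in size. Protein and junction structure were not measured.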
